A study of Rattus norvegicus with 24 samples.

Results

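The midbrain dissection that holds the dopamine neurons was set against the striatum that they innervate, in 12 of the 24 arrays of a series on rat models of attention deficit hyperactivity disorder. The arrays are those labelled SN_VTA (substantia nigra with the ventral tegmental area), DS (dorsal striatum) and VS (ventral striatum), 4 of each. They were chosen by region label alone, and no measured value entered that choice. Each region was measured once in each of 4 strain groups of male rats at postnatal day 55 to 65. The strain groups were the spontaneously hypertensive rat (SHR, 8 rats), the Wistar-Kyoto rat (WKY, 8 rats), unexposed Sprague-Dawley rats (SD, 8 rats) and Sprague-Dawley rats exposed to polychlorinated biphenyls (SDpcb, 4 rats). Dose and route of the exposure are not given in the sources used here, nor is it stated how many rats an array represents.

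For every gene, the mean of the DS and VS arrays was subtracted from the SN_VTA array of the same strain group on the scale log2(signal + 1), which leaves 4 differences per gene. A positive difference means a higher signal in SN_VTA. The strain groups are thus the repeated values, and a p-value measures agreement between 4 strain groups rather than between animals. An exact sign-flip permutation test on 4 differences cannot give a two-sided p below 0.125, so the tests quoted come from limma fitted across all probe sets, adjusted by Benjamini-Hochberg, and a gene is called at an adjusted p under 0.05. Values after ± are the standard error of that fit (n = 4 differences). SDpcb is also reported apart, because its SN_VTA array was low in serotonin neuron transcripts and high in hypothalamic ones, the latter shared with SHR, and counts without it (n = 3 differences) stand beside the main counts.

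Dopamine neurons of the substantia nigra and ventral tegmental area make dopamine from tyrosine with tyrosine hydroxylase (Th) and aromatic amino acid decarboxylase (Ddc). They load it into vesicles through Slc18a2 and take it back up through the dopamine transporter Slc6a3. Their axons end in the striatum, where GABA-releasing medium spiny neurons carry Drd1 or Drd2 receptors and a dense cyclic AMP signalling machinery. Messenger RNA lies mostly in cell bodies, so a dissection of the source and of the target sample different cells of the same circuit.

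The promoters of Th and Slc18a2 are shown because both genes were higher in SN_VTA and both carry the full palindromic cyclic AMP response element TGACGTCA in the 250 bases before the annotated gene start. The same windows of Slc6a3 and Drd1 are shown beside them, as the transporter and the receptor on either side of the synapse. Neither holds these letters. Whether an annotated start is where transcription begins was not checked, so a missing element describes the window and not the promoter. Sequences are RefSeq's for the rat assembly GRCr8, read 5′ to 3′ along the gene's strand, with the element in capitals. The motif was picked after the values had been seen. It reads alike on both strands, and 466 of 27457 promoter windows of this length (1.70%) hold it. Among the genes of dopamine synthesis, storage and clearance it was found in 2 of 14 windows (14.3%). These are the windows of Th and Slc18a2, shown here for carrying it, so this share is no test of the list. Among the genes of dopamine receptors and cyclic AMP signalling it was found in 0 of 30. In Th the element starts 69 bases and in Slc18a2 52 bases before the gene start. The windows are chr1:207508219-207508468 (minus strand) for Th, chr1:268399771-268400020 (plus strand) for Slc18a2, chr1:31578963-31579212 (minus strand) for Slc6a3 and chr17:10546354-10546603 (plus strand) for Drd1. A match describes letters only.
Th: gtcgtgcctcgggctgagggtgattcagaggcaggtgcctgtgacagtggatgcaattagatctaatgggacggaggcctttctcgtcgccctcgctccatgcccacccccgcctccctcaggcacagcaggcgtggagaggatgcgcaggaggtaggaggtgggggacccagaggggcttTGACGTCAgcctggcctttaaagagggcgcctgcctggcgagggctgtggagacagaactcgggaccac
Slc18a2: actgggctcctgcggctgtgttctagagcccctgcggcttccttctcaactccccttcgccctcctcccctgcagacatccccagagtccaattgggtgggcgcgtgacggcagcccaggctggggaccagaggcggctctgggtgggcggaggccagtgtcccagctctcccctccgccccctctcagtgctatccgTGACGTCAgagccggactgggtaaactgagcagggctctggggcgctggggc
Slc6a3: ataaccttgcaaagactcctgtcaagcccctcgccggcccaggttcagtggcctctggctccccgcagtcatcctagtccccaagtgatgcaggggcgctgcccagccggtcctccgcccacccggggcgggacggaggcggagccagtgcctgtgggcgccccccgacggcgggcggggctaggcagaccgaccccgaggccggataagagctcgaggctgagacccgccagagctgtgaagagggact
Drd1: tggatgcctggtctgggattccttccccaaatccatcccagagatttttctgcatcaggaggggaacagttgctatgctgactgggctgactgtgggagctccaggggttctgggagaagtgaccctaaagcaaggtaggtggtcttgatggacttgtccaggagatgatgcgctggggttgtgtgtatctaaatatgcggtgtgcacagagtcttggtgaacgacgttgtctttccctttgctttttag

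Array medians ran from 92.5 to 184 signal units over the 12 arrays, and 19.9% to 40.0% of probe sets had a signal under 50. As a measure of RNA length, the Gapdh control probe sets read higher at the 3′ end than at the 5′ end by a log2 value that ran from 0.82 to 1.98 on the SN_VTA arrays and from 1.18 to 2.10 on the striatal arrays. The SDpcb arrays of SN_VTA, DS and VS had the lowest medians (92.8, 92.5 and 94.3) and the lowest Gapdh values (0.82, 1.30 and 1.18). Their shares of probe sets under 50 were the highest, at 40.0%, 40.0% and 39.0%. Of 9097 genes tested, 531 passed the filter on low signals through a bright mean in 1 tissue only. Over all genes tested the median difference was 0.13 in SD, 0.058 in SHR, 0.075 in WKY and -0.064 in SDpcb. Across the 9097 genes, which are not independent, the differences of SD, SHR and WKY correlated at Pearson r of 0.73 to 0.80 with each other, and those of SDpcb at 0.57 to 0.67 with the others.

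The source and the target differed in 27.9% of the genes tested. At an adjusted p under 0.05, 4368 of 15521 probe sets (28.1%) were called, 2283 higher in SN_VTA and 2085 lower. Counted by gene this gave 1469 higher genes (16.1%) and 1072 lower genes (11.8%), and 26.8% of genes were called with 1 sign in all 4 differences. A difference of at least 1 log2 unit as well was seen in 10.1% of probe sets, or 361 higher genes (3.97%) and 471 lower genes (5.18%). All 4 SN_VTA arrays lay above all 8 striatal arrays for 431 genes (4.74%) and below them for 533 genes (5.86%). Without SDpcb, 5443 probe sets were called (35.1%), which by gene gave 35.4%, with 22.1% higher and 13.3% lower. Without SD, SHR and WKY in turn, 3136, 2590 and 2369 probe sets were called. Of these 1494, 1236 and 1095 were higher and 1642, 1354 and 1274 lower, all fewer than over 4 strain groups. List counts with SD, SHR or WKY left out are to be read against that fall in all calls. Each other list count that follows is to be read against the shares over all genes, 16.1% higher and 11.8% lower, or 22.1% and 13.3% without SDpcb. Counts of genes without overlap are to be read against 4.74% above and 5.86% below. On the plot of mean signals, genes of dopamine and hypothalamic neurons lay far from the diagonal on the SN_VTA side. Slc6a4 of serotonin neurons, Ttr of the choroid plexus and Slc17a6 of glutamate neurons lay far out there too. Genes of medium spiny neurons lay far out on the striatal side.

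**Figure D1:**
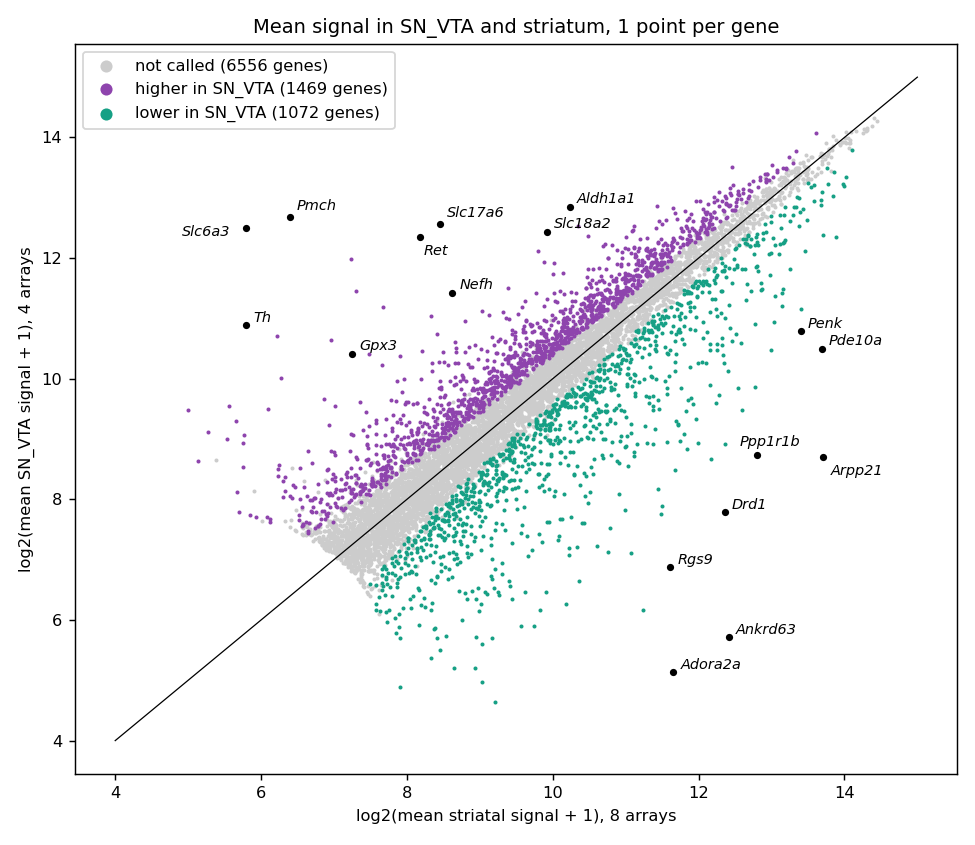
Each of 9097 genes is a point, with the log2 of its mean striatal signal (8 arrays) on the horizontal axis and of its mean SN_VTA signal (4 arrays) on the vertical axis. The 1469 purple genes were called higher and the 1072 green genes lower in SN_VTA, and the line marks equal signal.

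Most tested genes of dopamine synthesis, storage and clearance were higher in SN_VTA, and the monoamine oxidases were not called. Of 16 listed genes 13 were measured, 11 passed the filter and 7 were called, all higher, also without SDpcb, against 16.1% of all genes. With SD, SHR or WKY left out the count was 6. Among those 11, 7 were bright in both tissues and 3 of these were called higher, so part of the count comes from genes that passed through SN_VTA alone. In such bulk samples fewer cells of a type and less RNA per cell cannot be told apart. Slc6a3, on chromosome 1 of GRCr8, had SN_VTA signals of 7789 (SD), 8411 (SHR), 5916 (WKY) and 955 (SDpcb), against striatal signals of 8.79 to 119.7 (median 44.3). Every SN_VTA array lay above every striatal array, although SDpcb was several times below the other SN_VTA arrays. The difference was 6.68 ± 0.24 (adjusted p = 3.75e-07), the highest of all genes called. In SDpcb the difference was 6.07, and its striatal signals, 8.79 in DS and 19.7 in VS, were also the lowest. Th had SN_VTA signals of 2222 (SD), 3742 (SHR), 1367 (WKY) and 217 (SDpcb) and striatal signals of 1.29 to 249 (median 36.1). Its groups overlapped, since the DS array of SD (249) lay above the SN_VTA array of SDpcb. The Th difference was 5.81 ± 0.39 (adjusted p = 8.2e-06).

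Slc18a2, which fills vesicles with monoamines, read 6566 (SD), 6692 (SHR), 5107 (WKY) and 3828 (SDpcb) in SN_VTA and 606 to 1211 (median 1000.5) in striatum, with no overlap and a difference of 2.52 ± 0.21 (adjusted p = 3.37e-05). Its probe set was thus also bright in the striatum, where the 8 arrays lay close together. For Ddc, SN_VTA signals of 1486 (SD), 643 (SHR), 651 (WKY) and 447 (SDpcb) stood against 57.8 to 176 (median 115), a difference of 2.73 ± 0.29 (adjusted p = 0.000143). Aldh1a1, an aldehyde dehydrogenase of dopamine neurons that clears the aldehyde made by monoamine oxidase, read 10224 (SD), 9226 (SHR), 7232 (WKY) and 2787 (SDpcb) against 749 to 2059 (median 1055). It was 2.55 ± 0.27 higher (adjusted p = 0.000135), and again SDpcb was the lowest SN_VTA array. The cofactor branch was mixed. Qdpr, which regenerates tetrahydrobiopterin, was 1.05 ± 0.15 higher (adjusted p = 0.000795), and Gchfr, which controls the first enzyme of its synthesis, 1.23 ± 0.32 (adjusted p = 0.0194). The Gchfr call was lost without SD, SHR or WKY (adjusted p = 0.0524, 0.102 and 0.111). Pts, a synthesis enzyme, differed by 0.12 ± 0.27 (adjusted p = 0.783). Neither monoamine oxidase was called, Maoa at 0.21 ± 0.22 (adjusted p = 0.522) and Maob at 0.28 ± 0.16 (adjusted p = 0.219), and Aldh2 stood at -0.22 ± 0.24 (adjusted p = 0.53). Gch1, the entry enzyme of cofactor synthesis, and Dbh, which turns dopamine into noradrenaline, were under the filter in both tissues.

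**Figure D2:**
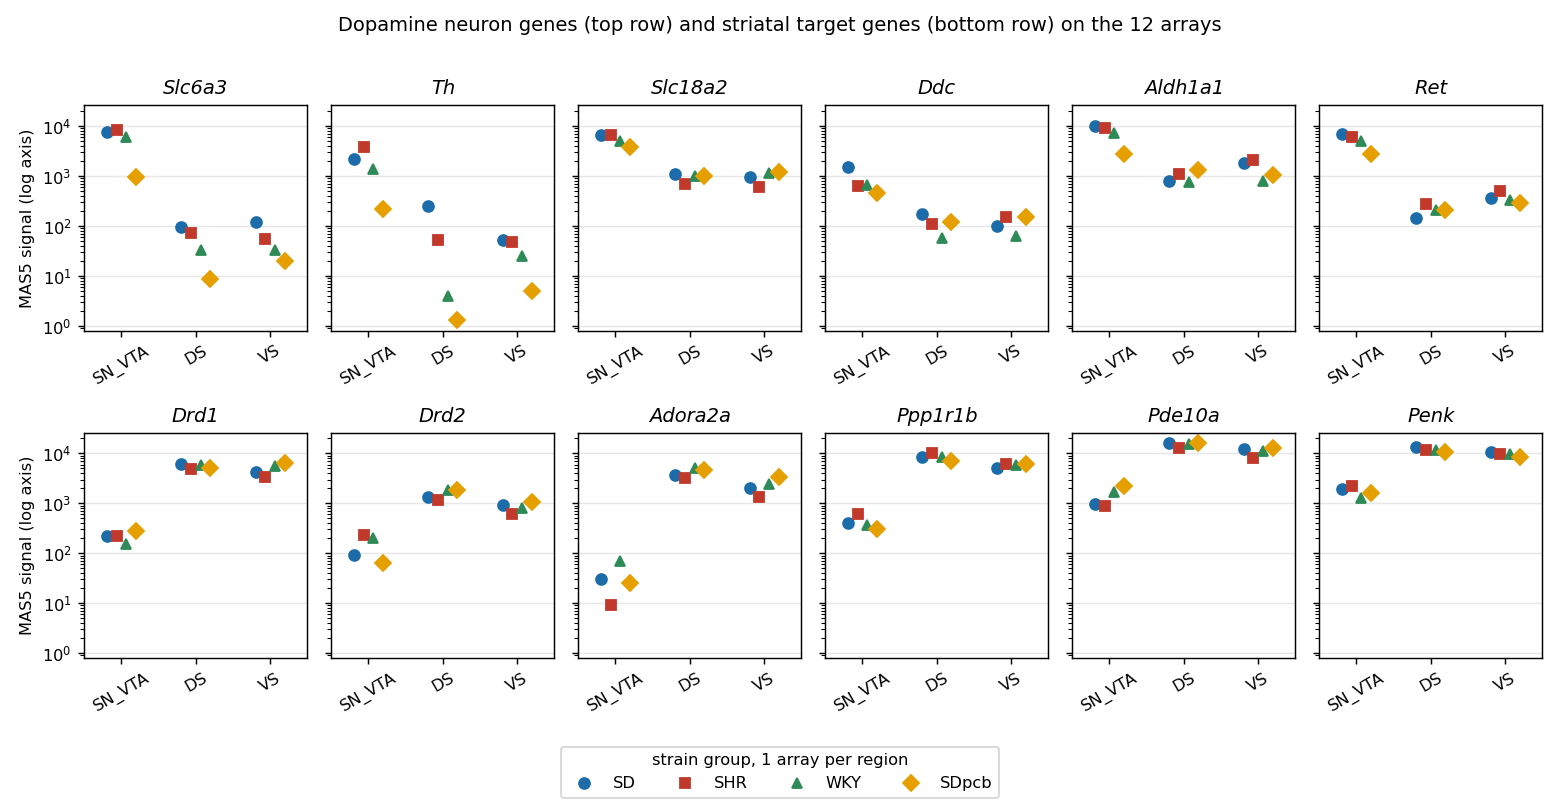
Signals on a log axis for 6 genes of dopamine neurons (top row) and 6 genes of striatal neurons (bottom row) on the 12 arrays, with 1 symbol per array, coloured by strain group. Slc6a3 spans 955 to 8411 in SN_VTA and 8.79 to 119.7 in striatum, and Drd1 156 to 284 and 3441 to 6531.

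Genes that specify or mark dopamine neurons were unevenly placed. Of 23 listed, 20 were measured and 14 tested, of which 8 were higher and 1 lower (10 and 1 without SDpcb), with 10 bright in both tissues and 4 of these higher. The receptor tyrosine kinase Ret, which signals for glial cell line-derived factors, read 7006 (SD), 5912 (SHR), 5106 (WKY) and 2762 (SDpcb) in SN_VTA and 143 to 491 (median 283) in striatum, a gap with no overlap and a difference of 4.17 ± 0.21 (adjusted p = 1.53e-06). The homeobox factor Otx2, which marks the ventral tegmental area among dopamine neurons, was 2.55 ± 0.22 higher (adjusted p = 3.84e-05), with single differences from 1.99 to 3.22. En2, a homeobox gene of the midbrain-hindbrain junction, read 783 (SD), 616 (SHR), 766 (WKY) and 43.7 (SDpcb) in SN_VTA against 2.69 to 148 (median 21.3) in striatum. The En2 groups overlapped through SDpcb, and the difference was 3.97 ± 0.55 (adjusted p = 0.000632). Sncg, gamma-synuclein, differed by 3.82 ± 0.65 (adjusted p = 0.00216), with single differences from 1.49 to 6.41. Bnc2 was 1.39 ± 0.27 higher (adjusted p = 0.00398) and Satb1 0.54 ± 0.12 (adjusted p = 0.00674). Against VS alone Bnc2 was 0.80 (adjusted p = 0.0393) and Satb1 was not called (0.35, adjusted p = 0.0922). Calb1, the calcium buffer calbindin found in tegmental dopamine neurons and in striatal neurons, was -0.55 ± 0.17 (adjusted p = 0.0371), and its call was lost without SD, SHR or WKY (adjusted p from 0.000893 to 0.182 over the 4 leave-outs) and against DS or VS alone (adjusted p = 0.0573 and 0.0616). Ndnf at 1.04 ± 0.27 (adjusted p = 0.0166) was lost in the same 3 leave-outs, with adjusted p up to 0.0904.

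Several genes best known from dopamine neurons gave no call or could not be tested. Nr4a2, an orphan nuclear receptor needed for the dopamine fate, read 188 (SD), 343 (SHR), 174 (WKY) and 259 (SDpcb) in SN_VTA and 95.1 to 783 (median 277) in striatum. The ranges overlapped and the difference was -0.14 ± 0.38 (adjusted p = 0.816). Sox6 stood at 0.028 ± 0.22 (adjusted p = 0.938). Slc10a4, a vesicle protein of monoamine and acetylcholine neurons, read 1196 (SD), 1441 (SHR), 709 (WKY) and 84.9 (SDpcb) in SN_VTA against 290.1 to 753 (median 422). It was not called over 4 strain groups (0.36 ± 0.55, adjusted p = 0.669) and was called without SDpcb (1.31 ± 0.19, n = 3 differences, adjusted p = 0.000247). Gfra1, a co-receptor of Ret, was not called (0.68 ± 0.29, adjusted p = 0.107) but passed without SDpcb (adjusted p = 0.0397) and without SD (adjusted p = 0.0481). Pitx3, Foxa1, Foxa2 and the nicotinic subunits Chrna6 and Chrnb3 lay under the filter. None of the 9 nicotinic receptor genes measured passed it, so this receptor family could not be compared at these signals.

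Of 28 listed trophic factors and receptors 25 were measured and 16 tested, of which 9 were higher and 0 lower, against 16.1% and 11.8% of all genes (10 and 0 without SDpcb, against 22.1% and 13.3%). Without SHR or WKY the count of higher genes was 6. Besides Ret, the co-receptor Gfra2 read 1950.4 (SD), 1790.3 (SHR), 2773 (WKY) and 4511 (SDpcb) in SN_VTA and 418 to 1322 (median 953) in striatum and was 1.67 ± 0.21 higher (adjusted p = 0.000382). Fgf1, a growth factor without a classical secretion signal, read 1187 (SD), 1245 (SHR), 1262 (WKY) and 1084 (SDpcb) against 95.9 to 376 (median 195), with no overlap and a difference of 2.70 ± 0.16 (adjusted p = 4.64e-06). Fgf9 was 0.79 ± 0.16 higher (adjusted p = 0.005), and the fibroblast growth factor receptor Fgfr3 0.39 ± 0.083 (adjusted p = 0.00654, and 0.0676 without the variance trend). Bdnf differed by 1.51 ± 0.36 (adjusted p = 0.0115), a call lost without SHR (adjusted p = 0.0625). Its difference was 2.19 against DS (adjusted p = 0.0076) but 0.84 against VS, where it was not called (adjusted p = 0.103). The Bdnf receptor Ntrk2 was not called at 0.29 ± 0.15 (adjusted p = 0.194), nor was Sort1 at -0.45 ± 0.16 (adjusted p = 0.0634). Gdnf itself was under the filter.

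On the receiving side, the genes of dopamine receptors and cyclic AMP signalling were lower in SN_VTA nearly throughout. All 34 listed genes were measured and 29 tested; 28 were lower and 0 higher, which held with each strain group left out in turn and stands against 11.8% of all genes lower. Of the 29, 21 were bright in both tissues and 20 of these were lower. For 25 of the 29, all 4 SN_VTA arrays lay below all 8 striatal arrays. The median difference of the list was -2.50, and by strain group -2.18, -2.17, -2.50 and -2.64 in SD, SHR, WKY and SDpcb. Drd1 read 222 (SD), 218 (SHR), 156 (WKY) and 284 (SDpcb) in SN_VTA and 3441 to 6531 (median 5358) in striatum, a difference of -4.57 ± 0.18 (adjusted p = 4.76e-07). Its 4 SN_VTA signals lay close together and far below the striatal ones. Drd2, which dopamine neurons also carry as an autoreceptor, read 91.1 (SD), 227 (SHR), 198 (WKY) and 63.2 (SDpcb) against 625 to 1833 (median 1115), a difference of -3.14 ± 0.35 (adjusted p = 0.000166), without overlap. Drd3, Drd4 and Drd5 were under the filter. Caly, a protein that binds Drd1, was the 1 tested member without a call, at 0.29 ± 0.14 (adjusted p = 0.149).

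Downstream of the receptors, the named members of the stimulatory G protein chain were lower. The alpha subunit Gnal, striatal partner of Drd1 and Adora2a, read 2297 (SD), 1756 (SHR), 1838 (WKY) and 1420.4 (SDpcb) in SN_VTA and 4732 to 6933 (median 5519) in striatum, -1.61 ± 0.11 (adjusted p = 1.13e-05). The gamma subunit Gng7 read 95.2 (SD), 104 (SHR), 37.8 (WKY) and 45.6 (SDpcb) against 1437 to 4305 (median 2276), -5.11 ± 0.24 (adjusted p = 1.23e-06). Adcy5, the main striatal adenylyl cyclase, was -2.82 ± 0.24 (adjusted p = 3.81e-05). Gnal remained well visible in the midbrain dissection, whereas Gng7 was dim there. Ppp1r1b, which encodes DARPP-32, the phosphatase inhibitor switched by protein kinase A, read 406 (SD), 612 (SHR), 372 (WKY) and 302 (SDpcb) against 5137 to 10192 (median 6598), -4.09 ± 0.14 (adjusted p = 3.74e-07). Arpp21, another kinase substrate, read 419.9 (SD), 254 (SHR), 372 (WKY) and 609 (SDpcb) against 9820.4 to 16651 (median 13461), -5.07 ± 0.16 (adjusted p = 3.04e-07).

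Cyclic nucleotide breakdown and G protein shut-off followed the same order. Pde10a, the phosphodiesterase of medium spiny neurons, read 985 (SD), 889 (SHR), 1694 (WKY) and 2191 (SDpcb) in SN_VTA and 7922 to 16335 (median 13035) in striatum, a difference of -3.26 ± 0.17 (adjusted p = 1.98e-06). Pde1b was at -2.72 ± 0.16 and Pde2a at -2.79 ± 0.22 (adjusted p = 3.14e-06 and 2.51e-05). Rgs9, which speeds the turn-off of Drd2 signalling, read 107 (SD), 227 (SHR), 75.5 (WKY) and 55.5 (SDpcb) against 1404 to 5292 (median 3059.6), -4.81 ± 0.23 (adjusted p = 1.32e-06). Its anchor Rgs7bp stood at -2.50 ± 0.29 (adjusted p = 0.000242) and its partner Gnb5 at only -0.68 ± 0.10 (adjusted p = 0.00105). The phosphatase Ptpn5 was -2.45 ± 0.14, the small G protein Rasd2 -3.48 ± 0.16 and the exchange factor Rasgrp2 -2.26 ± 0.15 (adjusted p = 3.08e-06, 1.05e-06 and 8.04e-06). A further Rasgrp2 probe set did not repeat this, at 0.06 (adjusted p = 0.875). The calcium arm was lower by less, with Itpr1 at -1.46 ± 0.11 and calcineurin's Ppp3ca at -0.74 ± 0.087 (adjusted p = 1.32e-05 and 0.00024).

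Other receptors of striatal neurons were split. Of 20 listed 17 were measured and 10 tested, 5 of them lower and 0 higher, against 11.8% and 16.1% of all genes (6 and 0 without SDpcb). Of the 7 bright in both tissues 2 were lower, so the other 3 lower genes passed the filter through the striatum alone. Adora2a, the adenosine receptor of the Drd2 neurons, read 30.4 (SD), 9.17 (SHR), 71.6 (WKY) and 25.1 (SDpcb) in SN_VTA and 1335 to 5043 (median 3306) in striatum. The gap had no overlap, and the difference of -6.74 ± 0.31 (adjusted p = 1.05e-06) was second only to Ankrd63 among all lower genes. Without WKY it was -7.12, further from zero than Ankrd63 at -6.46. Gpr6, an orphan receptor of the same neurons, was -3.68 ± 0.29 (adjusted p = 2.38e-05), the muscarinic receptor Chrm4 -3.13 ± 0.51 (adjusted p = 0.00167) and Gpr155 -1.07 ± 0.14 (adjusted p = 0.000478), or -0.68 against VS alone. Gpr149 at -1.10 ± 0.24 (adjusted p = 0.00757) was lost without SHR or WKY (adjusted p = 0.0505 and 0.0509). Not called were Adora1 at 0.26 ± 0.19 (adjusted p = 0.341), Gpr83 at -0.57 ± 0.31 (adjusted p = 0.206, and 0.0244 without SDpcb) and Htr2a at -0.44 ± 0.33 (adjusted p = 0.362).

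The peptides of medium spiny neurons were lower in SN_VTA, while 2 peptide receptors and 1 peptide were higher. The list had 21 genes, 20 measured and 13 tested, 6 lower and 3 higher with and without SDpcb. Of the 3 higher genes 1 was bright in both tissues. Penk, the enkephalin precursor, read 1933 (SD), 2189 (SHR), 1295 (WKY) and 1641 (SDpcb) in SN_VTA and 8636 to 13709 (median 10604) in striatum, a difference of -2.63 ± 0.13 (adjusted p = 1.37e-06). Pdyn, the dynorphin precursor, read 248 (SD), 813 (SHR), 162 (WKY) and 757 (SDpcb) against 2305 to 4158 (median 2859), -2.90 ± 0.39 (adjusted p = 0.000533). Tac1, the substance P precursor, stood at -1.91 ± 0.22 (adjusted p = 0.000213), with SDpcb closest to zero at -0.94. The cannabinoid receptor Cnr1 was -1.26 ± 0.13 (adjusted p = 9.85e-05), and the interneuron peptides Npy and Sst -1.85 ± 0.23 and -0.68 ± 0.14 (adjusted p = 0.000307 and 0.00558). Against VS alone Cnr1 was -0.67, and Sst was -1.04 there but not called against DS (-0.31, adjusted p = 0.169). Going the other way, Pnoc, the precursor of nociceptin, read 261 (SD), 438 (SHR), 381 (WKY) and 431 (SDpcb) against 6.50 to 232 (median 57.8), 3.12 ± 0.43 (adjusted p = 0.000617), and its receptor Oprl1 was 1.81 ± 0.28 higher (adjusted p = 0.00118). Ligand and receptor of the nociceptin system thus both had their higher signal on the source side. The calcitonin receptor Calcr was 2.39 ± 0.54 higher (adjusted p = 0.00908), 1.52 ± 0.26 without SDpcb (adjusted p = 0.000799). It depended on the target region, at 4.16 against DS (adjusted p = 0.00107) and 0.62 without a call against VS (adjusted p = 0.365). Nts, neurotensin, was not called at -0.34 ± 0.31 (adjusted p = 0.448), nor Tacr1 at -0.54 ± 0.34 (adjusted p = 0.264).

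Transcription factors of striatal projection neurons were mostly lower. Of 26 listed 21 were measured and 18 tested, 12 lower and 1 higher (13 and 1 without SDpcb), and for 10 the groups did not overlap. Of the 12 lower genes 8 were bright in both tissues. Bcl11b, needed for medium spiny neuron differentiation, read 682 (SD), 495 (SHR), 702 (WKY) and 985 (SDpcb) in SN_VTA and 3899 to 7383 (median 6409) in striatum, -3.14 ± 0.13 (adjusted p = 7.16e-07). Rarb, a retinoic acid receptor, was -3.60 ± 0.19 (adjusted p = 1.98e-06), Foxp1 -2.52 ± 0.23 (adjusted p = 4.73e-05) and Meis2 -3.28 ± 0.14 (adjusted p = 9.27e-07). Dlx5 was at -2.68 ± 0.32 (adjusted p = 0.000273). The activity gene Nr4a1 was -3.38 ± 0.34 (adjusted p = 8.98e-05). Foxp4 alone was higher, 0.77 ± 0.20 (adjusted p = 0.0174), a call lost without SHR or WKY (adjusted p = 0.0619 and 0.106) and against DS alone (adjusted p = 0.0634). Dlx1 was not called at -1.46 ± 0.54 (adjusted p = 0.0704) and was at -2.20 ± 0.37 without SDpcb (adjusted p = 0.000789). Ebf1 and Meis1, at -0.21 ± 0.18 and -0.30 ± 0.25 (adjusted p = 0.428 and 0.399), were not called.

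Among 25 further striatal markers 23 were measured and 21 tested, and 20 were lower. For 17 the groups did not overlap, against 5.86% of all genes with SN_VTA below. Of the 21 tested, 17 were bright in both tissues and 16 of these were lower. The rest of the lower genes passed the filter through the striatum alone. Ankrd63, an ankyrin repeat protein, read 53 (SD), 43.5 (SHR), 4.30 (WKY) and 105 (SDpcb) in SN_VTA and 4718 to 6711 (median 5316) in striatum, and its -7.31 ± 0.51 (adjusted p = 1.08e-05) was the lowest difference of any gene called. That rank rested on the low WKY reading, since without WKY Ankrd63 was at -6.46 and Adora2a at -7.12. Ngef, an ephrin receptor exchange factor, was -3.11 ± 0.14 (adjusted p = 1.1e-06), Syndig1l -3.26 ± 0.18 (adjusted p = 2.31e-06) and Actn2 -4.16 ± 0.41 (adjusted p = 7.92e-05). Ppp1r16b, the member without a call, stood at -0.37 ± 0.18 (adjusted p = 0.15). Interneuron markers were few above the filter: of 16 listed 12 were measured and 6 tested, 3 lower and 1 higher. Chat, the acetylcholine-making enzyme, was under it, and the choline transporter Slc5a7 gave -0.80 ± 0.30 (adjusted p = 0.0719), not called, though it passed without SHR (adjusted p = 0.0437). Tac3, a tachykinin of striatal interneurons and of the hypothalamus, was -1.55 ± 0.24 (adjusted p = 0.00114).

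Immediate early genes, which neurons switch on with activity, were lower in SN_VTA in 10 of 13 tested members (17 of 18 measured) and higher in 1, against 11.8% of all genes lower. Of the 10 lower members 5 were bright in both tissues. Egr2 read 169 (SD), 211 (SHR), 82.3 (WKY) and 91.1 (SDpcb) in SN_VTA and 849 to 3031 (median 1419) in striatum, -3.60 ± 0.21 (adjusted p = 3.67e-06), and Egr1 1667 (SD), 1575 (SHR), 2968 (WKY) and 2893 (SDpcb) against 7719 to 16074 (median 10272), -2.28 ± 0.20 (adjusted p = 4.73e-05). Neither gene's groups overlapped. Arc stood at -2.44 ± 0.31, Nr4a3 at -2.29 ± 0.18 and Fosb at -2.41 ± 0.22 (adjusted p = 0.000356, 2.05e-05 and 5.11e-05). Fos, by contrast, gave no call at -0.014 ± 0.16 (adjusted p = 0.957), with similar means of 537 and 552. Jun was the higher member, 0.74 ± 0.12 (adjusted p = 0.00171), but a further Jun probe set read -0.03 (adjusted p = 0.950).

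Receptors and channels showed subunit-specific placement. Of 12 tested ionotropic glutamate receptor genes (17 of 18 measured) 7 were lower and 2 higher (6 and 2 without SDpcb). The AMPA receptor subunit Gria1 read 449 (SD), 486 (SHR), 474 (WKY) and 677 (SDpcb) in SN_VTA and 1259 to 1591 (median 1443) in striatum, -1.46 ± 0.14 (adjusted p = 6.26e-05), and Gria3 was -1.12 ± 0.12 (adjusted p = 0.00013). Gria4 showed no call at 0.014 ± 0.18 (adjusted p = 0.963). In the NMDA receptor family the direction turned between subunits. Grin2b read 48.2 (SD), 49.5 (SHR), 97.8 (WKY) and 92.8 (SDpcb) against 168 to 409 (median 238), -1.87 ± 0.35 (adjusted p = 0.00382). Grin2d, known from brainstem and diencephalic neurons, read 1940.2 (SD), 2578 (SHR), 2325 (WKY) and 2090.5 (SDpcb) against 255 to 1341 (median 464), 2.28 ± 0.17 (adjusted p = 1.94e-05), with no overlap. Of the 3 tested metabotropic receptors (6 of 7 measured) 2 were lower, 1 of them without SD, WKY or SDpcb. Grm5 was -1.68 ± 0.20 (adjusted p = 0.000255), Grm4 -0.89 ± 0.29 (adjusted p = 0.0452, up to 0.189 with 1 strain group left out, and 0.0891 and 0.0518 against DS and VS alone) and Grm3 -0.21 ± 0.12 without a call (adjusted p = 0.242).

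For inhibition, 7 GABA-A receptor genes were tested (12 of 15 measured), with 2 lower and 1 higher, against 11.8% and 16.1% of all genes. Of the 5 bright in both tissues 1 was lower and 0 higher. The extrasynaptic subunit Gabrd read 22.2 (SD), 153 (SHR), 72.5 (WKY) and 88.9 (SDpcb) in SN_VTA and 456 to 835 (median 568) in striatum, -3.11 ± 0.33 (adjusted p = 0.000135). Gabre read 134 (SD), 299 (SHR), 91.6 (WKY) and 289 (SDpcb) against 5.78 to 176 (median 38.7), 2.16 ± 0.52 (adjusted p = 0.0126), a call lost without WKY (adjusted p = 0.0599) and against VS alone (adjusted p = 0.0589). Gabra2 was -0.92 ± 0.22 (adjusted p = 0.012), with 0.019 in SDpcb and a call that was lost without SD, SHR or WKY (adjusted p from 3.1e-05 to 0.0747 over the leave-outs). Of 4 tested genes of the glycine system (7 measured), 3 were higher and 1 lower. The receptor subunits Glra2 and Glrb were both higher. Glra2 was 0.83 ± 0.13 and Glrb 0.82 ± 0.16 (adjusted p = 0.00122 and 0.00421), and the glycine transporter Slc6a9 1.12 ± 0.18 (adjusted p = 0.00167). The scaffold Gphn was the lower one, -0.44 ± 0.15 (adjusted p = 0.048), and was lost in all 4 leave-outs (adjusted p from 0.0541 to 0.146) and against DS or VS alone (adjusted p = 0.0775 and 0.107).

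Potassium channel genes divided into source and target sets. Of 33 listed pacemaking and somatodendritic channel genes 28 were measured and 16 tested, 7 higher and 6 lower (8 and 6 without SDpcb), against 16.1% and 11.8% of all genes. Kcnj6, the GIRK2 subunit of nigral dopamine neurons, read 439 (SD), 671 (SHR), 462 (WKY) and 671 (SDpcb) in SN_VTA and 75 to 315 (median 246) in striatum, 1.43 ± 0.24 (adjusted p = 0.00206). The fast-spiking channels Kcnc1 and Kcnc2 were 1.44 ± 0.17 and 1.06 ± 0.13 (adjusted p = 0.00022 and 0.000317). Kcnj4, an inward rectifier of medium spiny neurons, read 31.4 (SD), 22.1 (SHR), 26.7 (WKY) and 15.5 (SDpcb) against 415 to 776 (median 573), -4.59 ± 0.30 (adjusted p = 7.62e-06). In the A-type channel family the pore and its partners switched member by member. Kcnd3 with Kcnip1 and Kcnip4 was higher (0.91 ± 0.13, 0.87 ± 0.12 and 0.58 ± 0.094, adjusted p = 0.000648, 0.000612 and 0.00159). Kcnd2 with Kcnip2 and Kcna4 was lower (-0.61 ± 0.11, -3.60 ± 0.34 and -1.82 ± 0.14, adjusted p = 0.003, 6.25e-05 and 2.05e-05). Kcnip4 was not called against VS alone (0.21, adjusted p = 0.167) and was 0.95 against DS. The calcium-activated Kcnma1 was -1.84 ± 0.14 (adjusted p = 2.05e-05). The Hcn2, Hcn3 and Hcn4 pacemaker genes were under the filter.

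Of 16 voltage-gated calcium and sodium channel genes tested (23 of 25 measured) 10 were lower and 2 higher (12 and 2 without SDpcb). Cacna2d3 was -2.0 ± 0.14 (adjusted p = 1.04e-05), Cacnb3 -1.55 ± 0.18 (adjusted p = 0.000195) and the pore subunit Cacna1h -1.39 ± 0.29 (adjusted p = 0.00661). Scn4b, a sodium channel beta subunit of medium spiny neurons, read 1300.3 (SD), 1479 (SHR), 2189.8 (WKY) and 716 (SDpcb) in SN_VTA and 4134 to 11809.9 (median 8569) in striatum, -2.53 ± 0.29 (adjusted p = 0.000189). Scn1a was the other way, 0.84 ± 0.11 (adjusted p = 0.000478). A pair of AMPA receptor auxiliary subunits also parted: Cacng3 was -1.76 ± 0.14 (adjusted p = 2.75e-05), while Cacng2 was 0.82 ± 0.22 (adjusted p = 0.0212) and was lost without SHR or WKY (adjusted p = 0.107 and 0.128). Without WKY, 7 members of this list were lower.

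**Figure D3:**
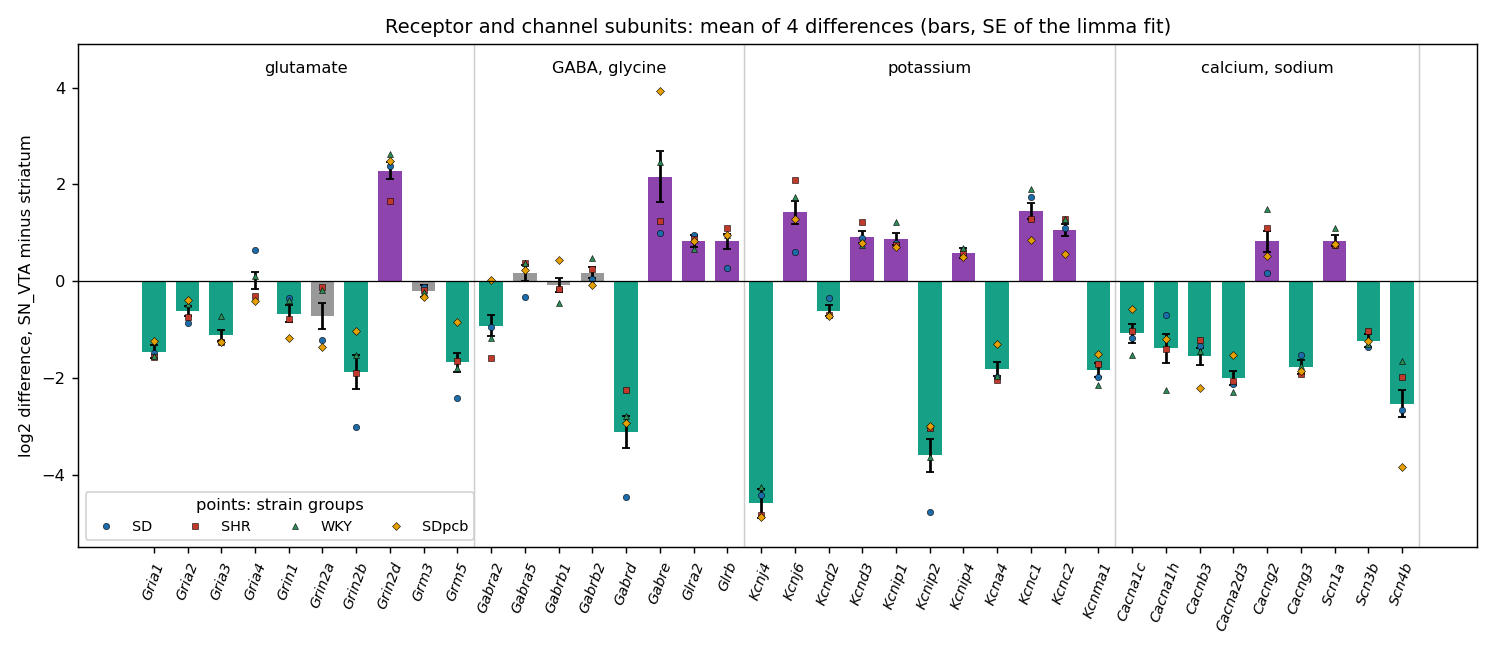
Bars give the mean log2 difference (SN_VTA minus striatum, n = 4 differences) with the standard error of the limma fit for 38 receptor and channel genes, and small symbols the 4 strain groups. Purple bars were called higher, green bars lower and grey bars not called, and Grin2d at 2.28 stands against Grin2b at -1.87 within 1 receptor family.

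Markers of midbrain neurons other than dopamine neurons moved both ways. Of 17 listed glutamate and GABA neuron genes 13 were measured and 9 tested, 6 higher and 3 lower, of which 4 and 3 were bright in both tissues. Higher members numbered 4 without SHR or WKY. Slc17a6, the vesicular transporter of subcortical glutamate neurons, read 5742 (SD), 5923 (SHR), 5996 (WKY) and 6534 (SDpcb) in SN_VTA and 39 to 649.9 (median 373) in striatum. The groups did not overlap and the difference was 4.48 ± 0.29 (adjusted p = 7.09e-06). Calb2, calretinin, read 2518 (SD), 2245 (SHR), 2255 (WKY) and 2297 (SDpcb) against 97.8 to 296 (median 233), 3.59 ± 0.17 (adjusted p = 1.23e-06), and the factor Zfpm2 was 1.88 ± 0.18 (adjusted p = 5.95e-05). Pvalb, parvalbumin, which nigral reticulata neurons hold, read 2980.3 (SD), 3966 (SHR), 3798 (WKY) and 883 (SDpcb) against 229 to 1208 (median 553), 2.12 ± 0.45 (adjusted p = 0.00712), with SDpcb in the striatal range. Tal1 was 1.65 ± 0.41 (adjusted p = 0.0145), lost without SHR or WKY (adjusted p = 0.0768 and 0.0852). The GABA synthesis genes Gad1 and Gad2 were lower, -0.47 ± 0.097 and -1.16 ± 0.16 (adjusted p = 0.00596 and 0.000742), with Gad1 at an adjusted p of 0.0565 without the variance trend.

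Among serotonin and brainstem transcripts, Slc6a4 was high in 3 of the 4 SN_VTA arrays, while Prph, Irx3 and Tcf7l2 were above the striatum in all 4. Slc6a4, the serotonin transporter of the raphe, read 1074 (SD), 907 (SHR), 876 (WKY) and 13.2 (SDpcb) in SN_VTA and 3.74 to 98.3 (median 9.14) in striatum, so that SDpcb alone lay within the striatal range. Its difference was 4.25 ± 0.81 (adjusted p = 0.00397), and 5.36 ± 0.62 without SDpcb (adjusted p = 4.41e-05). Of 14 listed serotonin and motor neuron genes 12 were measured and 3 tested, 2 of them higher (3 without SDpcb); both passed the filter through SN_VTA alone, and the 1 member bright in both tissues was not called. Summed over those 12, SN_VTA signals were 2973 in SD, 3357 in SHR, 2256 in WKY and 767 in SDpcb, against strain-group sums of 799.5 to 1302 in striatum. Prph, peripherin, a filament of motor neurons, was 2.58 ± 0.32 (adjusted p = 0.000359). The positional factors Irx3 and Tcf7l2 were 3.72 ± 0.35 and 1.45 ± 0.13 (adjusted p = 6.54e-05 and 4.73e-05), 2 of the 3 midbrain and hindbrain factors called higher among 6 tested (22 of 29 measured), with En2 the third and 0 lower. Of these 3 factors 1 was bright in both tissues.

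Hypothalamic transcripts differed widely between the 4 SN_VTA arrays. Of 25 listed genes 21 were measured and 13 tested, 7 higher and 2 lower (6 and 2 without SDpcb, 9 and 2 without WKY). Of the 8 bright in both tissues 2 were higher and 2 lower, so 5 of the 7 higher genes passed the filter through SN_VTA alone. Summed over the 21 genes, SN_VTA signals were 7864 in SD, 33341 in SHR, 4863 in WKY and 28498 in SDpcb, against strain-group sums of 4434 to 7820.1 in striatum. SHR and SDpcb were thus the high arrays, and WKY lay within the striatal range. Pmch, the melanin-concentrating hormone precursor of the lateral hypothalamus, read 2447 (SD), 9765 (SHR), 1038 (WKY) and 13017 (SDpcb) in SN_VTA and 14.6 to 280.4 (median 53.6) in striatum, 6.29 ± 0.70 (adjusted p = 0.000167). No SN_VTA array overlapped with the striatum for this gene. Oxt, oxytocin, read 156 (SD), 9747 (SHR), 58.6 (WKY) and 1283 (SDpcb) against 1.71 to 1112 (median 13.9), 4.80 ± 0.79 (adjusted p = 0.00173), and Avp, vasopressin, 194 (SD), 5563 (SHR), 145 (WKY) and 801 (SDpcb) against 5.21 to 289.9 (median 38.7), 3.92 ± 0.65 (adjusted p = 0.00182). Both overlapped with the striatum, where the VS array of SHR held 1112 for Oxt. Hcrt, orexin, was 2.70 ± 0.83 (adjusted p = 0.0372) but 1.50 ± 0.58 without SDpcb (adjusted p = 0.062), and also lost its call without SHR (adjusted p = 0.138) and against VS alone (adjusted p = 0.0624). Gal was 1.65 ± 0.49 (adjusted p = 0.0324), 0.91 without SDpcb, and lost without SHR (adjusted p = 0.0926) and against DS alone (adjusted p = 0.0515). Hdc, which makes histamine in the tuberomammillary nucleus next to the ventral tegmental area, was 2.71 ± 0.51 (adjusted p = 0.00373). Hap1 was 1.29 ± 0.18 (adjusted p = 0.000606), or 0.80 against VS alone. Cartpt and Nkx2-1 had among the widest spreads of the genes not called, with single differences from -0.91 to 3.17 and -0.82 to 2.33. Trh, Crh and Vip stood at 0.81 ± 0.46, 0.56 ± 0.26 and 0.19 ± 0.53 (adjusted p = 0.222, 0.133 and 0.823), without a call. The part of neighbouring tissue in other SN_VTA differences was not tested.

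Axonal and glial genes made up a second layer of higher genes. Of 16 tested genes for neurofilaments and axonal transport (16 of 17 measured) 11 were higher and 1 lower (8 and 1 of them bright in both tissues), and 12 and 1 without SDpcb. With SD, SHR or WKY left out, 8, 7 and 7 were higher. The 1 lower gene was the motor protein Kif5c (-0.50, adjusted p = 0.0303), and its call was lost without SD, SHR or WKY. No tested gene of the Kif5 motor family was called higher. Nefh, the heavy neurofilament chain of thick axons, read 3004 (SD), 4027 (SHR), 3571 (WKY) and 399 (SDpcb) in SN_VTA and 189 to 865 (median 288) in striatum, 2.53 ± 0.40 (adjusted p = 0.00136). SDpcb was again far below the other SN_VTA arrays and within the striatal range. Without it the difference was 3.20 ± 0.15 (n = 3 differences, adjusted p = 3.86e-08). Vamp1, a synaptic vesicle protein, was 1.56 ± 0.19 (adjusted p = 0.000267) and Spp1, osteopontin, 3.11 ± 0.46 (adjusted p = 0.000983). Gap43, Kif5b and Thy1 were not called, at 0.18 ± 0.088, 0.16 ± 0.088 and 0.34 ± 0.12 (adjusted p = 0.166, 0.211 and 0.0598), and Thy1 passed without SDpcb (adjusted p = 0.00351).

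Oligodendrocyte genes had positive median differences in SD, SHR and WKY but not in SDpcb. Of 20 tested (21 of 25 measured) 12 were higher over 4 strain groups and 19 without SDpcb, against 22.1% of all genes, with 0 lower in both. The count was 8, 7 and 6 without SD, SHR and WKY. The median difference was 0.71 to 1.03 in those 3 groups and -0.04 in SDpcb. Mog, a myelin surface protein, read 2157 (SD), 2381 (SHR), 2262 (WKY) and 1212 (SDpcb) in SN_VTA and 814 to 1142 (median 1062) in striatum, 0.92 ± 0.18 (adjusted p = 0.00502). Ugt8, which makes myelin galactolipid, was 1.26 ± 0.18 (adjusted p = 0.000767) and Cryab 1.11 ± 0.22 (adjusted p = 0.00451). Cnp and Olig1 stood at 0.32 ± 0.11 and 0.53 ± 0.18 (adjusted p = 0.0579 and 0.0526), and at 0.48 and 0.72 without SDpcb (adjusted p = 0.00075 and 0.00307). In SDpcb alone their differences were -0.14 and -0.065.

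Astrocyte genes were mixed, with 9 of 16 tested members higher and 2 lower (17 of 18 measured), and 5 higher and 1 lower without SD, SHR or WKY. Agt, angiotensinogen, read 4937 (SD), 6733 (SHR), 3399 (WKY) and 2760.5 (SDpcb) in SN_VTA and 407 to 2883 (median 559.6) in striatum, 2.58 ± 0.17 (adjusted p = 8.04e-06), with overlapping ranges. Gfap and Gjb6 were 1.18 ± 0.20 and 1.08 ± 0.13 (adjusted p = 0.00185 and 0.000239), Itih3 1.13 ± 0.14 (adjusted p = 0.000388). The glutamate transporter Slc1a2, which clears transmitter at excitatory synapses, was lower, -0.91 ± 0.17 (adjusted p = 0.00421), and the gap junction gene Gja1 gave -0.12 ± 0.081 without a call (adjusted p = 0.323). Of the 9 microglia genes tested (12 of 13 measured) limma called 0 higher and 0 lower, and 0 had an unadjusted p under 0.05, with adjusted p of 0.36 for Tyrobp (-0.29 ± 0.22) and 0.441 for Aif1 (0.17 ± 0.15).

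Vessel, meningeal and choroid plexus genes were higher in 12 of 17 tested members (9 of the 12 bright in both tissues) and lower in 0 (22 of 23 measured), 13 without SDpcb and 8 without SD. Ttr, transthyretin, the main product of choroid plexus, read 6787 (SD), 608 (SHR), 8138 (WKY) and 723 (SDpcb) in SN_VTA and 33.1 to 468 (median 106) in striatum, 4.31 ± 0.71 (adjusted p = 0.00179), with an uneven spread of 0.95 to 6.68. The meningeal genes Igf2 and Igfbp2 were 2.47 ± 0.29 and 2.01 ± 0.16 (adjusted p = 0.000244 and 2.36e-05). Against VS alone they were 1.37 and 0.90. The collagen Col1a2 was 1.34 ± 0.20 (adjusted p = 0.001), or 0.82 against VS, and the endothelial Cldn5 was not called at 0.37 ± 0.18 (adjusted p = 0.15, and 0.011 without SDpcb). Summed over the 22 measured genes, SN_VTA signals were 38456 in SD, 29218 in SHR, 19863 in WKY and 19274 in SDpcb, against strain-group sums of 6148 to 18781 in striatum. The blood gene Hbb, the 1 of 2 measured blood genes that passed the filter, was 0.64 ± 0.11 (adjusted p = 0.00213). The part of these tissues in other results was not tested.

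Iron, antioxidant, mitochondrial and Parkinson disease genes were considered because nigral dopamine neurons are known for iron load and oxidative stress. Of 23 tested iron and antioxidant genes (26 of 30 measured) 9 were higher and 0 lower, and 15 and 0 without SDpcb. Gpx3, the plasma glutathione peroxidase, read 867 (SD), 2525 (SHR), 809.7 (WKY) and 1248 (SDpcb) in SN_VTA and 39.2 to 485 (median 92.3) in striatum, 3.45 ± 0.29 (adjusted p = 3.24e-05), with no overlap. Its difference was highest in SDpcb, 4.74. Heph, an iron oxidase, was 1.37 ± 0.24 (adjusted p = 0.00232) and Gsta4 0.83 ± 0.12 (adjusted p = 0.000666). Gpx4 at 0.49 ± 0.19 and Prdx5 at 0.32 ± 0.13 were not called (adjusted p = 0.0865 and 0.103) and passed without SDpcb (adjusted p = 0.0156 and 0.00461). Of 22 respiratory chain genes, all measured and tested of 28 listed, 1 was higher over 4 strain groups and 13 without SDpcb. That 1 was Sdhc at 0.38 ± 0.12 (adjusted p = 0.0415), lost without SD, SHR or WKY and against DS or VS alone (adjusted p = 0.0623 and 0.0577). The list's median was 0.22 to 0.41 in SD, SHR and WKY and -0.17 in SDpcb, where 1 of the 22 lay above zero. Of 10 Parkinson disease genes tested (12 of 18 measured) 3 were higher, 6 without SDpcb and 1 without each of SD, SHR and WKY. Uchl1 was 0.40 ± 0.08 (adjusted p = 0.00515, and 0.0648 without the variance trend), and Park7 and Fbxo7 were 0.42 ± 0.11 and 0.63 ± 0.20 (adjusted p = 0.0229 and 0.0415), both lost without SD, SHR or WKY and against DS alone (adjusted p = 0.0601 and 0.077). Pink1 and Atp13a2 stood at 0.49 ± 0.20 and 0.60 ± 0.22 (adjusted p = 0.0942 and 0.0732).

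**Figure D4:**
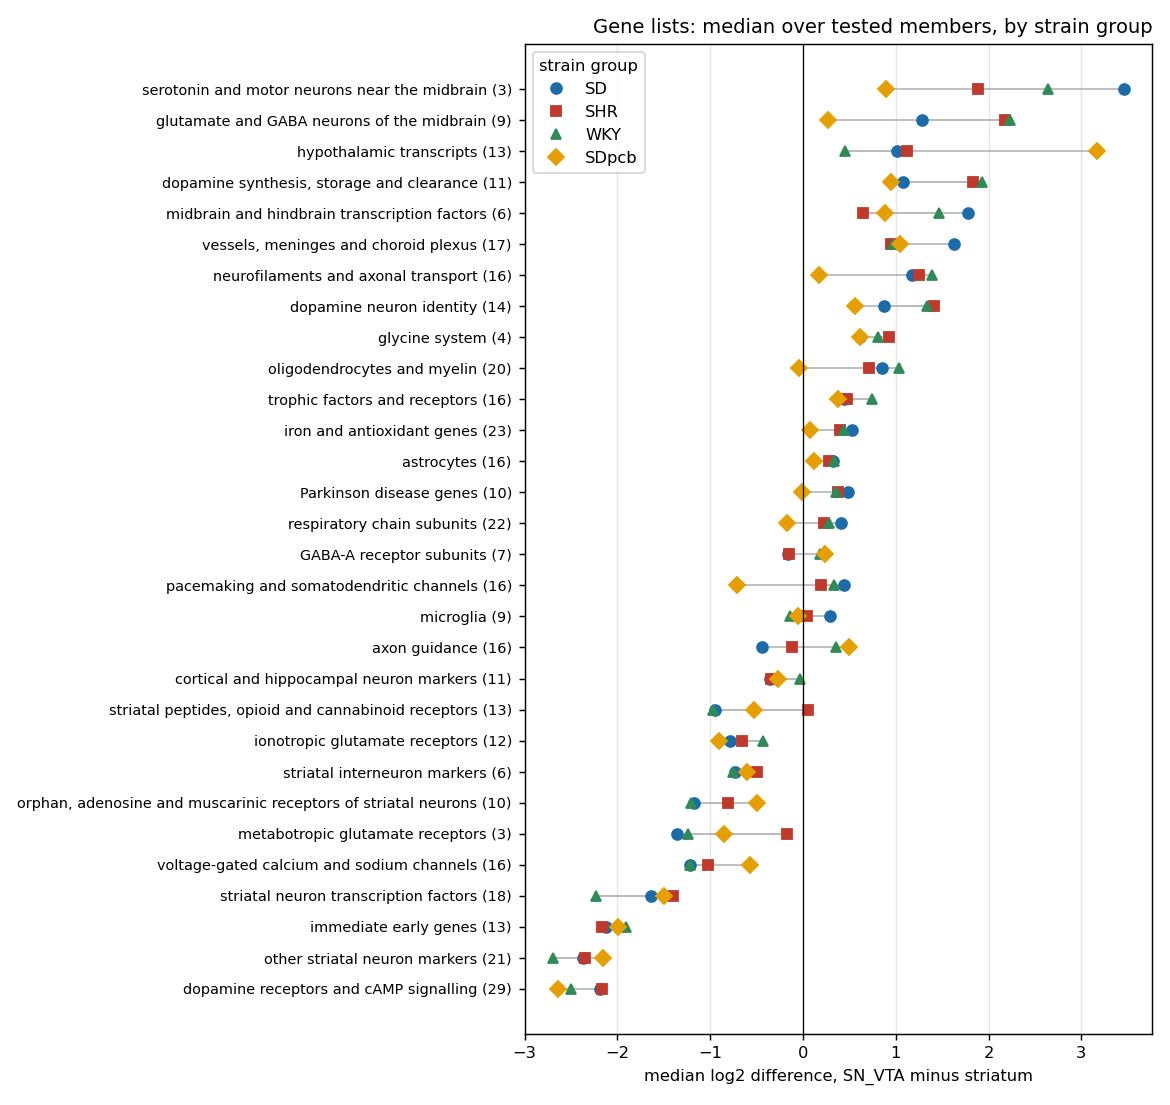
Each row is a gene list with its number of tested members in brackets, and the symbols give the median log2 difference (SN_VTA minus striatum) of those members in each strain group. SDpcb sits apart at 3.17 for hypothalamic transcripts and near zero for oligodendrocyte and neurofilament genes, and with the others near -2.50 for dopamine receptors and cAMP signalling.

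Guidance molecules and cortical markers completed the lists. Of 16 axon guidance genes tested (25 of 31 measured) 5 were higher and 4 lower, against 16.1% and 11.8% of all genes, and 4 and 5 without SDpcb, against 22.1% and 13.3%; 3 were higher without SHR or WKY. Ntng1, a membrane netrin, was 1.66 ± 0.19 higher (adjusted p = 0.000223), and the receptors Nrp2 and Nrp1 were 0.99 ± 0.22 and 0.89 ± 0.22 (adjusted p = 0.00859 and 0.0141), with Nrp1 at 0.58 without SDpcb. Nrp2 was 1.96 against DS (adjusted p = 0.000938) and 0.017 against VS, where it was not called (adjusted p = 0.969). Ntng1 and Nrp1 were 1.05 and 0.59 against VS. Epha4 and Robo2 were lower, -1.32 ± 0.12 and -0.96 ± 0.16 (adjusted p = 4.25e-05 and 0.00161). Of 11 cortical and hippocampal markers tested (18 of 19 measured) 4 were lower and 2 higher, and 4 and 4 without SDpcb; 2 were lower without WKY. Mef2c was -1.52 ± 0.12 and Emx2 -1.50 ± 0.16 (adjusted p = 2.41e-05 and 0.000161), while Prox1 and Nrn1 were 1.11 ± 0.13 and 1.40 ± 0.27 (adjusted p = 0.000195 and 0.0041), with Nrn1 at 0.87 against VS alone. The cortical glutamate transporter Slc17a7 was -1.52 ± 0.50 (adjusted p = 0.0481), lost against DS alone (adjusted p = 0.193) and without SD, WKY or SDpcb (-0.83 and adjusted p = 0.0948 without SDpcb). Its striatal signals were 112 to 916 (median 538). Summed over the 18 measured cortical and hippocampal markers, striatal signals were 23747 to 36679 over the strain groups. Neurod6, a cortical pyramidal factor, was under the filter.

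The highest and lowest genes outside these lists were a mixed set. Adcyap1, a neuropeptide of the glucagon family, read 577 (SD), 757 (SHR), 906 (WKY) and 1879.8 (SDpcb) in SN_VTA and 19.1 to 155 (median 68.4) in striatum, 3.84 ± 0.19 (adjusted p = 1.62e-06). Cbln1, a synapse organizer, read 1223 (SD), 1793 (SHR), 1272 (WKY) and 2076 (SDpcb) against 31.2 to 276 (median 97), 3.92 ± 0.26 (adjusted p = 7.76e-06). For both genes the 4 SN_VTA arrays lay above all striatal arrays. Grifin was 4.20 ± 0.68 (adjusted p = 0.00166) with differences from 1.52 to 6.55, and LOC102553190 3.88 ± 0.46 (adjusted p = 0.000242). Among the lowest, the alpha-2C adrenergic receptor Adra2c read 118 (SD), 53.1 (SHR), 8.46 (WKY) and 25 (SDpcb) against 322 to 784 (median 559), -3.98 ± 0.55 (adjusted p = 0.000672). Rprml read 166 (SD), 167 (SHR), 95.3 (WKY) and 119 (SDpcb) against 1554 to 3099 (median 2026), -3.97 ± 0.20 (adjusted p = 1.54e-06). Cracdl, Neu2, Tbc1d10c and LOC100912227 ranged from -4.38 to -3.84, with adjusted p of 1.33e-06, 5.8e-06, 0.000544 and 0.00089, and none of the 4 overlapped between the tissues.

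With DS or VS alone as the target, 0 of the named genes with a call changed sign. Of 202 such genes 18 lost the call against DS alone and 21 against VS alone, and not all of these are given beside the genes. Not given there are, among others, Dgkk, Gng8 and Gclm against DS (adjusted p = 0.0637, 0.0589 and 0.618). The same holds for Plxna1 against VS (adjusted p = 0.128) and Gata2 against either (adjusted p = 0.0512 and 0.0920). Against DS alone 3788 probe sets were called (24.4%) and against VS alone 3789 (24.4%); both use the same SN_VTA arrays. By gene, 1636 were called against both regions, 579 against DS but not VS and 573 against VS but not DS, and the difference between those calls was not tested. Just 1 gene was called against both with opposite signs. Cux2, a homeobox gene of upper cortical layers, was 1.0 against DS (adjusted p = 0.0166) and -0.42 against VS (adjusted p = 0.0284). Its signals were 2136 (SD), 2018 (SHR), 2027 (WKY) and 1819.7 (SDpcb) in SN_VTA, 965, 715, 730.3 and 1944 in DS and 3075, 2914, 2569 and 2203 in VS, in the order SD, SHR, WKY and SDpcb. SN_VTA lay above DS and below VS in SD, SHR and WKY, and below both in SDpcb.

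Taken apart, SDpcb shared the sign of the other groups more often among lower than among higher genes, a difference that was not tested. Of 2006 genes called higher in SD, SHR and WKY, 1516 (75.6%) had a positive difference in SDpcb too, and of 1211 called lower 1084 (89.5%) had a negative one; of all genes tested 65.9% shared the sign of the mean of the other 3. Its highest departures from the other groups, given as values with no test, were hypothalamic and pituitary-type transcripts. Cga, the common subunit of the glycoprotein hormones, read 254 (SD), 32.2 (SHR), 25.8 (WKY) and 1295 (SDpcb) in SN_VTA and 2.92 to 139 (median 19.6) in striatum, a difference of 6.92 in SDpcb against 0.014 to 2.28 in the other groups. Tshb, the thyrotropin subunit, stood at 4.57 against -0.21 to 0.99. Oxt stood at 8.40 against 2.65 to 5.07, although its SN_VTA signal was highest in SHR (9747, against 1283 in SDpcb). The Oxt signals in DS and VS, in that order, were 4.31 and 1.71 in SDpcb and 75 and 1112 in SHR. Hcrt stood at 6.28 against 0.062 to 3.44 and Pmch at 9.31 against 3.70 to 7.10. Also among the 8 highest were Scn9a at 5.20, Tmem255a at 4.48 and Dgkk at 4.73.

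The 8 genes that stood lowest in SDpcb relative to the other groups included 3 of monoamine neurons. Slc6a4 was at 0.90 against 4.03 to 6.96, Slc10a4 at -2.49 against 0.95 to 1.78 and Sncg at 1.49 against 2.82 to 6.41. Pvalb was at -0.21 against 2.52 to 3.20, Gng8 at -0.91 against 1.99 to 2.60 and Wdr91 at -3.18 against -0.30 to 0.04. Alb and LOC102547155, both lower in SN_VTA throughout, were at -5.95 and -6.45 against -4.07 to -0.87 and -3.95 to -1.91. Of the tested genes of dopamine synthesis 9 of 11, and of dopamine neuron identity 11 of 14, had a positive difference in SDpcb, with Aldh1a1 at 1.24 against 2.63 to 3.24, Ddc at 1.71 against 2.33 to 3.48 and Ret at 3.47 against 4.0 to 4.93. Of the 29 tested genes of dopamine receptors and cyclic AMP signalling 1 lay above zero in SDpcb, and 1 in each other group. The genes that follow are examples chosen after their values were seen. Drd1 was at -4.34 against -5.21 to -4.23. Further from zero than in the other groups were Pde1b at -3.25 against -2.57 to -2.50, Meis2 at -3.60 against -3.21 to -3.14 and Chrm4 at -5.31 against -2.85 to -1.51. Closer to zero were Gpr149 at -0.11 against -1.49 to -1.39 and Kcna4 at -1.29 against -2.05 to -1.95. Exposure, dissection, the single SN_VTA array of SDpcb and the lower signal medians of all its arrays used here cannot be told apart.

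**Figure D5:**
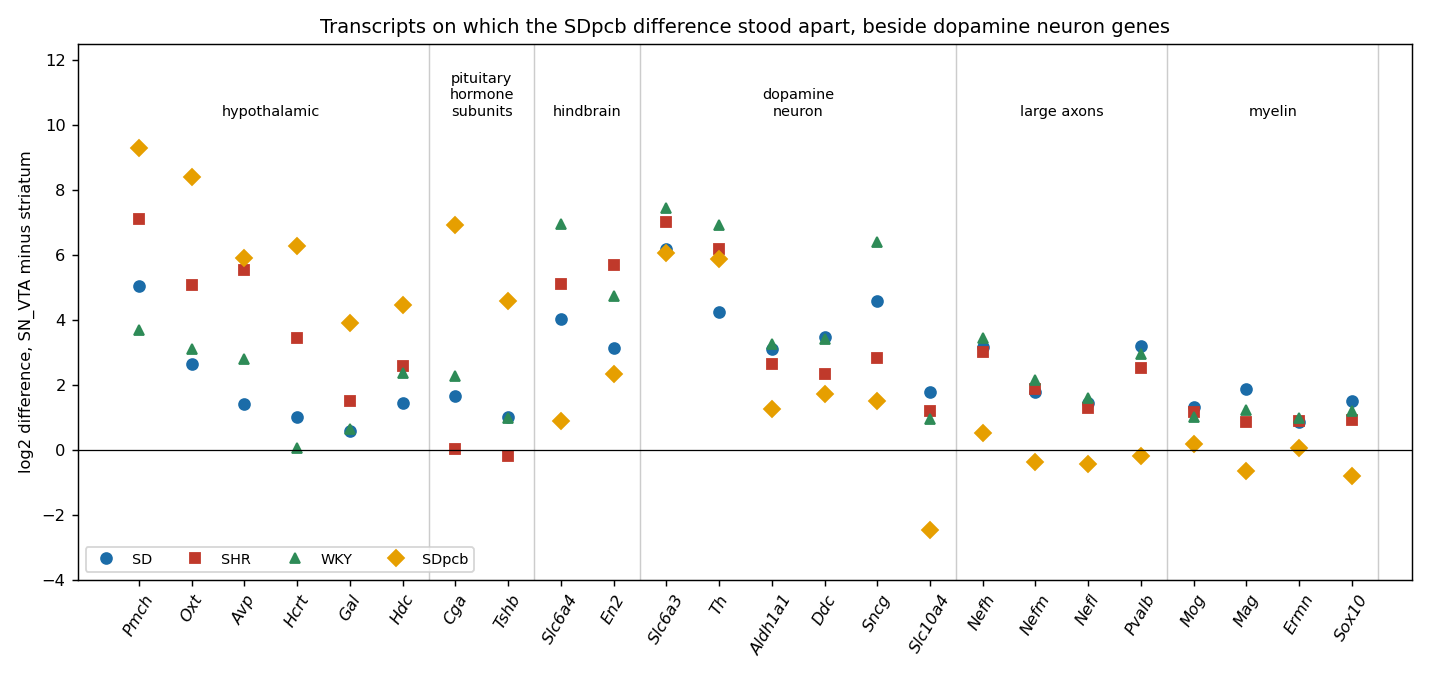
Log2 differences (SN_VTA minus striatum) of 24 genes in the 4 strain groups, 1 symbol per strain group. The orange SDpcb symbols lie above the others for Oxt (8.40, with the highest Oxt signal itself in SHR) and Cga (6.92), below them for Slc6a4 (0.90) and Nefh (0.52), and near them for Slc6a3 and Th. The SN_VTA signals of Slc6a3 and Th themselves were lowest in SDpcb, and so were the striatal signals of Slc6a3.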

How the data were processed

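Per the labels' protocols, RNeasy (Qiagen) served for RNA and Ovation (Nugen) for labelling, before hybridisation to the Affymetrix Rat RAE 230 2.0 array. The authors deposited 1 linear intensity per probe set and array, and per the submitters' processing notes it is a MAS5 signal, whose version is not given in the sources used here. Each array's trimmed mean is close to 500, so the deposited values share 1 level; detection calls are not used here, so no background level can be given. Precision is limited by the number of arrays. Whether RNA was pooled, and whether samples of a strain group are separate animals, is not stated, so p-values measure only the spread between these arrays.

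Of 31099 probe sets 57 controls were left out; 20826 of the rest had 1 symbol in the platform table, 436 several and 9780 none. Signals became log2(signal + 1), a scale on which very low signals can give large differences. With 16 added instead of 1, the differences of Ankrd63, Adora2a, Avp and Cga moved closer to zero. The size of a difference that rests on very low signals thus depends on the pseudocount. Probe sets whose mean linear signal, with SN_VTA and striatum weighted equally, reached its median (130) were tested: 15521, or 9097 genes, each gene by its brightest probe set. limma 3.58.1 in R 4.3.3 (intercept only, trend, 9.74 total degrees of freedom, two-sided) was fitted to the 4 differences, with Benjamini-Hochberg adjustment over probe sets. Tables and plots used Python 3.11.15, pandas 2.3.3 and matplotlib 3.10.9. Tested on simulated data for this comparison over 15521 probe sets, the fit recovered 23, 43, 47 and 48 of 50 changes of 1, 2, 3 and 4 log2 units, with 12 false calls. The simulated differences were normal and independent between probe sets, with each one's observed spread. Far fewer probe sets were changed than were called in the real data, so these counts do not carry over to the real arrays.

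Members and the 32 gene lists (615 genes, 532 measured, 379 tested) were chosen with earlier results of these data known. The text names the 15 highest and 15 lowest called genes of 1 sign, members of the dopamine, receptor and hypothalamic lists, up to 6 called members per direction and 3 uncalled ones of each other list, the 8 genes at each end for SDpcb, 5 uncalled genes of widest range, and genes called against DS and VS with opposite signs; list members under the filter were named, without a value, after values were seen. The plots also show some further list members, chosen the same way. Of 283 named genes 53 had further tested probe sets, and 2 (Jun, Rasgrp2) had one that disagreed. Alternatives covered normalization (quantile, median), pseudocount 16, filters, the variance model, 1 probe set per gene, a 12-array fit, DS or VS alone, thresholds and leaving out each strain group. A filter on both tissues was chosen after seeing the data.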

Additional observations from a re-analysis of the deposited data

Results flagged for a closer look

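Each named gene and list has 4 differences, and one was set apart where its gap to the nearest other filled more than 0.829 of their whole range. This was so for 27 of 283 genes (9.54%) and 1 of 30 list medians, where chance gives about 5%. Some of the 283 were named for standing apart in SDpcb, Dgkk and Wdr91 among them, or for a wide range. The genes are also not independent, so neither the share nor the SDpcb count that follows is a test against chance. The strain group apart was SDpcb for 14 genes, WKY for 6, SD for 5 and SHR for 2.

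In SDpcb the difference lay above the other 3 for Dgkk (4.73) and Nrp1 (1.82). It lay below them for the neurofilaments Nefh (0.52) and Nefm (-0.38), the motor protein Kif5c (-1.02), the phosphodiesterase Pde1b (-3.25), Meis2 (-3.60), Wdr91 (-3.18), Adora1 (-0.31), the myelin enzyme Cnp (-0.14), Pts (-0.45) and Gclm (0.48). It was closer to zero than the others for the receptor Gpr149 (-0.11) and the potassium channel Kcna4 (-1.29).

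In WKY the differences of Gata2 (1.76), Kcnip1 (1.23) and Scn1a (1.10) lay above the others, and so, closer to zero, did Gria3 (-0.71) and Emx2 (-1.04), while Efnb3 (-1.68) lay below. In SD, Nqo1 (0.91) and Kcnd2 (-0.35) lay above the other 3, and Glrb (0.28), Plxna1 (0.057) and Unc5c (-0.43) below. In SHR, Jund (0.33) lay above and Ngef (-3.33) below. The median of the list of vessels, meninges and choroid plexus was 1.63 in SD and between 0.95 and 1.04 in the others.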

How the results depend on the processing

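Of 202 named genes with a call, 118 were tested in each of 15 alternatives and 98 of these had the same call in all 15; counting only the alternatives that tested a gene, it was 153. The pseudocount of 16 ended no call. The total of 4368 called probe sets (2283 higher, 2085 lower) became 2891 (1236 lower) with the filter at a mean signal of 535. With 1 probe set per gene it was 2607 (1510 higher, 1097 lower), of 9097 tested. Requiring at least 1 log2 unit left 1569 (585 higher, 984 lower). With 1 strain group left out, the total ran from 2369 to 5443, higher probe sets from 1095 to 2947 and lower ones from 1274 to 2496, lowest without WKY and highest without SDpcb. The sign of Cux2 turned with the target region, from 0.29 over both, without a call, to -0.418 against VS alone (adjusted p = 0.0284). In all, 21 named genes changed sign in an alternative, and 0 of them were called in the main analysis. The medians of 5 lists also changed sign: pacemaking channels (0.056, and -0.085 against DS), GABA-A subunits (0.060, and -0.11 against VS), axon guidance (-0.077, and 0.40 against DS), midbrain and hindbrain factors (1.13, and -0.30 with the filter on mean log2 signal) and microglia (-0.025, and 0.080 without SDpcb). Of 420 list medians recomputed, 23 moved by the spread between strain groups or more, among them dopamine synthesis, storage and clearance at 2.54 with that filter. The analysis is paired by strain group, and the labels carry no replicate numbers. Limits remain: all 9 nicotinic receptor genes measured, among them Chrna6, lay under the filter, no replicate array exists in any region and strain group, and fewer cells cannot be told from less RNA.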
